A study of Rattus norvegicus with 12 samples.

Results

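The 10 microRNAs (miRNAs) described here are known as marks of epithelial, neural or endocrine cells rather than of muscle. They are the miR-200 family of epithelia (rno-miR-200a, rno-miR-200b, rno-miR-200c, rno-miR-141 and rno-miR-429), rno-miR-203 and rno-miR-205 of skin and other stratified epithelia, rno-miR-9 and rno-miR-124 of neurons, and rno-miR-375 of pancreatic islets and other endocrine cells. The choice was made by name, from what the miRNAs are known for, and they are 10 of the 677 rat miRNAs measured. Each was read in the soleus, a slow postural muscle of the leg, of 12 male Sprague-Dawley rats of 1 year of age. The 6 control offspring were born to dams on standard chow, and the 6 offspring of high fat-fed dams (HF offspring) to dams given a lard-based diet rich in saturated fat and sucrose from before mating until weaning. All offspring ate chow after weaning, so the groups differ by the diet of the mother. The study's text gives other numbers of rats for these groups in places, without saying which rats were left out, and all 12 labelled arrays were used here. Each rat had 1 single-colour array of Cy3-labelled total RNA from whole muscle, which also holds nerve, vessels, blood and connective tissue. In such tissue fewer cells of a type and less RNA per cell cannot be told apart.

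A miRNA binds messenger RNAs mainly through its seed, bases 2 to 8 from the 5′ end, and lowers their translation or stability. The miR-200 family keeps epithelial cells in their epithelial state by repressing the transcription factors ZEB1 and ZEB2, and miR-203 restrains p63 in the skin. MiR-124 and miR-9 act in neuronal differentiation, and miR-375 in insulin secretion and islet growth. None of them is known as a miRNA of the muscle fibre itself, so they ask how much signal of other lineages a muscle array carries.

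The mature sequences show how far the array names stand from each other, for those miRNAs with a sequence here. They are given 5′ to 3′ with the seed in capitals, as RefSeq annotates them on the rat assembly GRCr8. A mature entry was found for 6 of the 10 miRNAs, and rno-miR-200a, rno-miR-200b, rno-miR-429 and rno-miR-124 are named only.
rno-miR-200c: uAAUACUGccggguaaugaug
rno-miR-141: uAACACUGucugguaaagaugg
rno-miR-203: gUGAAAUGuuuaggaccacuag
rno-miR-205: uCCUUCAUuccaccggagucugu
rno-miR-9: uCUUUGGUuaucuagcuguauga
rno-miR-375: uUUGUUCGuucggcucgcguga

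No seed was shared within these 6 sequences, and the seeds of the other 4 members, most of them of the miR-200 family, were not compared. Those of rno-miR-200c (chr4:159209969-159209989, minus strand) and rno-miR-141 (chr4:159209540-159209561, minus strand) were the nearest, with 1 base of the seed and 4 of the first 21 positions different. Their hairpins lie within 509 bases of chromosome 4, and those of rno-miR-200b, rno-miR-200a and rno-miR-429 within 1908 bases of chromosome 5, so the family comes from 2 clusters. The other seeds differed from each other at 3 to 7 bases. The mature sequence of rno-miR-203 lies at chr6:137020756-137020777 (plus strand), that of rno-miR-205 at chr13:107564588-107564610 (minus strand) and that of rno-miR-375 at chr9:83906591-83906612 (minus strand). RefSeq places the sequence of rno-miR-9 in 3 genes, with the mature part at chr2:175974986-175975008, chr2:15933307-15933329 and chr1:142849415-142849437, all on the plus strand, and the array cannot say which was read.

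The arrays lay on 2 slides, each with 3 control and 3 HF rats. The scanner software flagged 177 to 220 of the 677 miRNAs as detected per array. Each array was scaled to the 75th percentile of the 162 miRNAs detected in every rat, and scaled values under the floor of 5.17 signal units, undetected ones included, were set to it. The 5 muscle miRNAs looked up as a check of the tissue were detected in all 12 rats, among them rno-miR-1 and rno-miR-133a. Rats are named by the codes of their labels, and 2 of them stood apart. In the HF rat H3 the slow fibre miRNA rno-miR-499 stood at 366 signal units, against 4553 to 9137 in the other 11 rats. In the same rat rno-miR-206, another miRNA of slow muscle, stood at 9354. The muscle list did not move as one there, since rno-miR-1 was highest of all rats in H3 at 136123 and rno-miR-133a next to highest at 2976. All 3 vessel miRNAs were lowest in H3, with rno-miR-126 at 2004 against 3951 to 5427 in the other rats, and the red cell miRNA rno-miR-451 was highest there at 3054. The control rat A89 had the most detected miRNAs, 220. Both rats are part of the results below, and values without them are given where a result rests on them.

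Of the 10 lineage miRNAs, 5 were detected in no rat: rno-miR-200c, rno-miR-141, rno-miR-429, rno-miR-124 and rno-miR-375. Among all 677 miRNAs, 63.8% were detected in no rat. A further 4 members, rno-miR-200a, rno-miR-200b, rno-miR-205 and rno-miR-9, were detected in 1 or 2 rats, against 4.87% of all miRNAs, which is 33 miRNAs. Only rno-miR-203 was detected in 10 or more rats, against 27% of all miRNAs. Its signal was at least 4 times its error in 6 rats, so 4 of its 10 detections were weaker than that. By this stricter rule 7 of the 10 members were found in no rat, against 65.9% of all miRNAs. In 120 combinations of a member and a rat, detection was flagged 15 times (12.5%), against 29.1% of all miRNA and rat combinations, and 10 of the 15 were rno-miR-203. The array also carried the opposite strand of 8 members, such as rno-miR-124* and rno-miR-375*, and none of these was detected in any rat. An undetected miRNA is listed at 0.1 by the software, which gives only a bound and does not show that it is absent from the muscle.

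**Figure D1:**
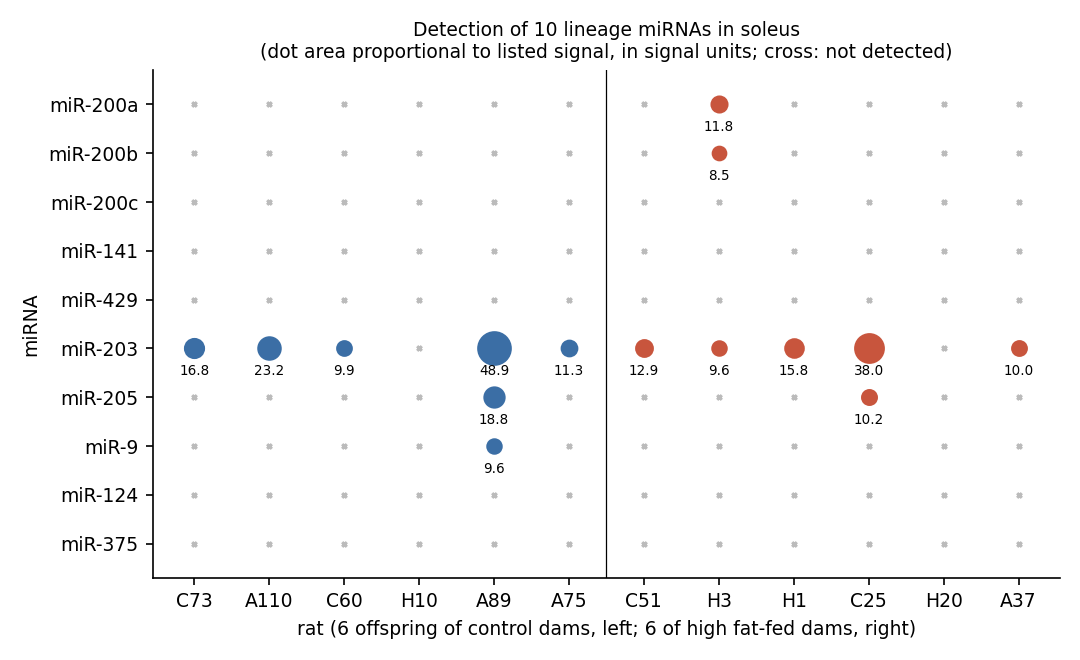
Detection of the 10 lineage miRNAs (vertical axis) in each of the 12 rats (horizontal axis, control offspring left and HF offspring right). Dot area is proportional to the listed signal in signal units, printed under each dot, and crosses are miRNAs that were not detected: only rno-miR-203 runs across most rats, and the other 5 detections lie in H3, A89 and C25.

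Within the miR-200 family, rno-miR-200a and rno-miR-200b were detected in a single rat, the HF rat H3. In that rat rno-miR-200a gave a signal of 11.8, which is 4.09 times its error, and 12.2 after scaling. There rno-miR-200b gave 8.54, which is 3.09 times its error and near the lowest ratio of any detected signal, 3.001, and 8.82 after scaling. In the other 11 rats neither was detected. Their cluster partner rno-miR-429 and the second cluster, rno-miR-200c and rno-miR-141, were not detected in H3 either.

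The difference HF minus control was 0.21 on the log2 scale for rno-miR-200a (SE 0.20, 95% interval -0.24 to 0.65) and 0.13 for rno-miR-200b (SE 0.15, 95% interval -0.19 to 0.45), with 6 rats a group. These differences rest on 1 rat and on the floor, so no fold is given, and with the floor 4 times lower they were 0.54 and 0.46. Without H3 the family was not detected in any of the 11 remaining rats. With a single detected rat among 12, no exact test could give a p under 1 for either, so none is used.

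H3 is also the rat of the low rno-miR-499 and rno-miR-206, the high rno-miR-1 and rno-miR-451 and the lowest vessel miRNAs. It had 9 miRNAs that no other array detected, the highest number of any rat, and the other rats had 0 to 4. Beside rno-miR-200a and rno-miR-200b, 7 miRNAs were found in H3 alone, among them rno-miR-134, rno-miR-188, rno-miR-18a, rno-miR-193* and rno-miR-3546. Whether what sets H3 apart has a part in its miR-200 signal was not tested.

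The miRNA of the skin lineage, rno-miR-203, was detected in 5 of 6 rats of each group. In control offspring its signal as listed was 16.8 in C73, 23.2 in A110, 9.90 in C60, 48.9 in A89 and 11.3 in A75, and it was not detected in H10. In HF offspring it was 12.9 in C51, 9.60 in H3, 15.8 in H1, 37.99 in C25 and 10.03 in A37, and it was not detected in H20. The highest rat of each group thus stood well above its other rats, and the groups overlapped over nearly their whole range.

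After scaling, rno-miR-203 ran from the floor of 5.17 to 39.8 in control offspring, with a median of 18.7 and a mean of 19.5 ± 11.8 (SD, n = 6). In HF offspring it ran from 5.17 to 28.5, with a median of 11.3 and a mean of 13.6 ± 8.62 (SD, n = 6). The HF minus control difference was -0.50 on the log2 scale (SE 0.49, 95% interval -1.56 to 0.56). In limma its adjusted p was 0.700 over the 193 miRNAs that 6 or more arrays detected. The exact permutation test over 924 assignments gave p = 0.385 (two-sided). The difference was thus within the spread between rats, and the interval allows a change in either direction.

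Within slides the log2 difference of rno-miR-203 was -0.58 on slide 1 and -0.43 on slide 2, with an exact permutation p of 0.39 over the 400 assignments within slides. Without A89 it was -0.25 and without H3 -0.40, and over all rats left out in turn it ran from -0.76 without C25 and -0.75 without H10 to -0.24 without H20. Over the 193 miRNAs tested, 0% passed an adjusted p of 0.05, and the smallest adjusted p in limma was 0.685. At an unadjusted p of 0.05 in limma, 2 of the 193 were lower and 0 higher in HF offspring. This split turned with the scaling, to 0 lower and 3 higher both without scaling and when undetected miRNAs entered the scaling percentile. With quantile normalization it was 0 lower and 5 higher. It grew in other settings, to 8 lower and 0 higher with slide as a block. Without H1, 15 of 190 were lower and 0 higher. The median difference of all 193 was -0.17, so the scaling itself places most miRNAs slightly lower in HF offspring, while without scaling it was 0.14 and rno-miR-203 was at -0.25.

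**Figure D2:**
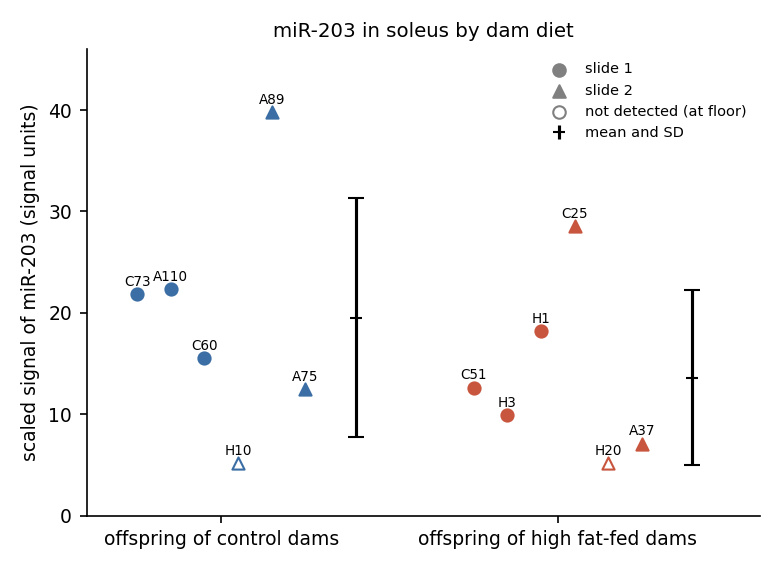
Scaled signal of rno-miR-203 in signal units (linear axis) in control and HF offspring, 6 rats each, with circles for slide 1, triangles for slide 2, open symbols for undetected rats at the floor of 5.17, and a bar for the mean and SD. A89 at 39.8 and C25 at 28.5 lead their groups, and the groups overlap.

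The second miRNA of stratified epithelia, rno-miR-205, was detected in 2 rats, A89 of the control group and C25 of the HF group. Its signal was 18.8 in A89, 5.52 times its error, and 10.2 in C25, 3.42 times its error. After scaling these were 15.3 and 7.66. The same 2 rats had the highest rno-miR-203 of all 12, so both skin lineage miRNAs were highest in A89 and C25. Both arrays were on slide 2 and were the 2 arrays with the most detected miRNAs.

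Detection of rno-miR-205 was equal, with 1 rat of 6 in each group. Its log2 difference was -0.17 (SE 0.26, 95% interval -0.73 to 0.40). This difference rests on 1 detected rat in each group and on the floor, so no fold is given. With the floor 4 times lower its SE was 0.67. Without A89 the difference was 0.085, a sign fixed by C25 as the only detected rat left. The 2 rats also shared the detection of 3 other miRNAs found in them alone, rno-miR-143*, rno-miR-222 and rno-miR-455*.

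Signal of miRNAs of fibroblasts, which surround muscle fibres and lie in the skin, moved with rno-miR-203 from rat to rat. The list held rno-miR-199a-5p, rno-miR-199a-3p and rno-miR-214, all detected in every rat. Their mean log2 signal was highest in C25, followed by C73 and A89, and summed signal was 2755 to 7094 in control and 2342 to 7391 in HF offspring. In C25 and A89, the rats with rno-miR-205, rno-miR-199a-5p stood at 1368 and 1202, next to 1183 in C73, where rno-miR-205 was not detected. For rno-miR-214 the order was different, with 1056 in C73, 907 in C25 and 857 in A89.

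Over the 12 rats, rno-miR-203 followed the mean log2 signal of the fibroblast list with Pearson's r = 0.770 (permutation p = 0.00458) and Spearman's rho = 0.781 (permutation p = 0.00397). Adjusted over the 5 marker lists examined, these were p = 0.0229 and p = 0.0199 (permutation). Without H3 and A37, the 2 rats farthest from the median of the list, r was 0.747 and rho 0.827. Without A89, the highest rat in rno-miR-203, r was 0.733 and rho 0.752, and without both A89 and C25 they were 0.659 and 0.669 (permutation p = 0.0445 and 0.0391, 10 rats). Within groups rho was 0.771 in control offspring (exact permutation p = 0.103) and 0.600 in HF offspring (exact permutation p = 0.242). Within slides it was 0.943 on slide 1 (exact permutation p = 0.0167) and 0.464 on slide 2 (exact permutation p = 0.372). The direction was the same in each of these splits of 6 rats, and only slide 1 passed the threshold of 0.05 by itself.

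The other 4 lists gave Spearman's rho of -0.413 for skeletal muscle, 0.515 for blood cells, -0.165 for vessels and 0.109 for liver, and none of them passed the adjusted threshold. Without the 2 rats farthest from the median of each list, rho was -0.65 for skeletal muscle and 0.29 for blood cells. In the same setting it was -0.27 for vessels and -0.32 for liver, where the sign turned. These lists were set against rno-miR-203 after its values were seen, and the adjustment over the lists does not account for that choice. Whether fibroblasts or another cell of the connective tissue or skin have a part in the signal of rno-miR-203 was not tested.

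**Figure D3:**
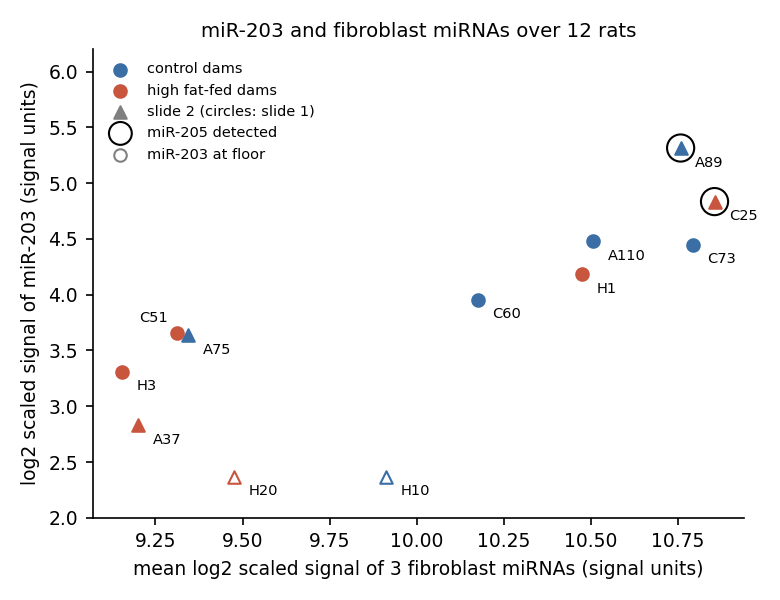
Log2 scaled signal of rno-miR-203 against the mean log2 scaled signal of 3 fibroblast miRNAs, 1 point a rat, coloured by group, with circles for slide 1, triangles for slide 2, open symbols for undetected rno-miR-203 and rings around rats with rno-miR-205. A89 and C25, the ringed rats, are the 2 highest in rno-miR-203 (Spearman's rho 0.781 over 12 rats).

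Of the neural miRNAs, rno-miR-124 was detected in no rat and rno-miR-9 in A89 alone. There rno-miR-9 gave a signal of 9.56, which is 3.20 times its error, and 7.77 after scaling. Its log2 difference HF minus control was -0.098 (SE 0.13, 95% interval -0.38 to 0.18). It was -0.43 with the floor 4 times lower and -0.017 with each array scaled over all miRNAs, and no exact test could give a p under 1. Without A89 rno-miR-9 was not detected in any rat. The miRNAs with the same pattern, detected in A89 and in no other rat, were rno-let-7c-1*, rno-miR-138 and rno-miR-190*. Of these, rno-miR-138 is also known from brain and was on the list of neural miRNAs, where it reached 7.34.

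The other neural miRNAs of the list showed no common pattern in A89. The list held 15 miRNAs, of which 6 were detected in at least 1 rat, 5 in all 12 rats and 9 in none. At 1189, rno-miR-338, which is known from oligodendrocytes and Schwann cells, was higher in A89 than in the other 5 control rats at 223 to 408. In H3 it was at 103, the lowest of all rats. At 113 and 81.2, rno-miR-218, which motor neurons hold in large amounts, was highest in H3 and next in A89, and it ran from 22.9 to 43.6 in the other 10 rats.

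Of the other neural miRNAs, rno-miR-128 ran from 362 to 1086 and rno-miR-212 from 548 to 876 over the 12 rats, and both were lowest in H3. In A89 they stood at 615 and 676, the lowest and the next to lowest of the controls. The fifth, rno-miR-219-5p, ran from 12.6 in H3 to 53.8 in C73 and stood at 45.9 in A89, within the range of the other controls. A high rno-miR-218 thus came with rno-miR-9 and rno-miR-138 in A89 and without them in H3. Whether nerve tissue has a part in the signal of rno-miR-9 was not tested.

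**Figure D4:**
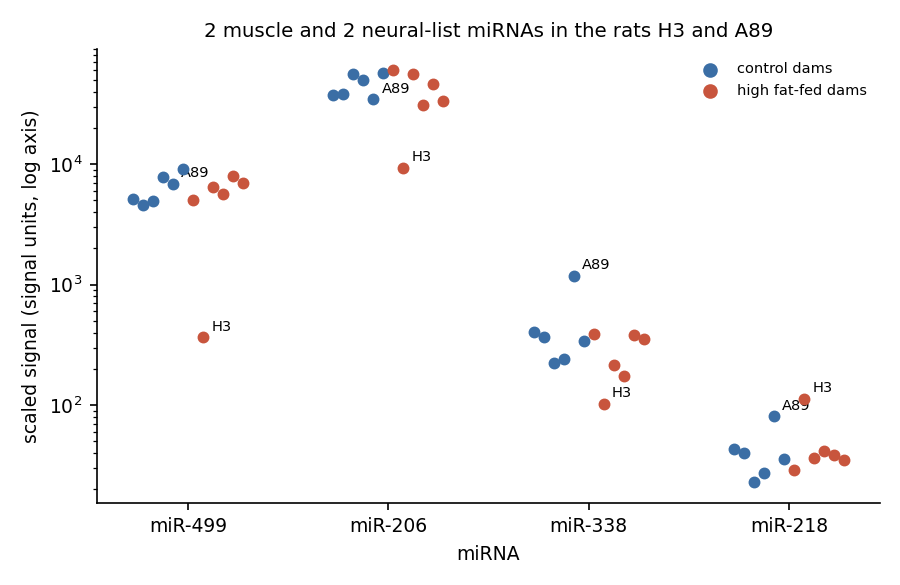
Scaled signal in signal units (log axis) of the muscle miRNAs rno-miR-499 and rno-miR-206 and the neural list miRNAs rno-miR-338 and rno-miR-218, 1 point a rat, coloured by group, with H3 and A89 named. H3 is lowest in rno-miR-499 at 366, and A89 is highest in rno-miR-338 at 1189.

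The endocrine miRNA rno-miR-375 was detected in no rat, and so was its opposite strand. Of the 4 other endocrine or pancreatic miRNAs matched on the array, rno-miR-7a was detected in all 12 rats, and rno-miR-184, rno-miR-216a and rno-miR-217 in none. The signal of rno-miR-7a was 30.9 to 49.7 in control and 36.1 to 49.2 in HF offspring, 2 ranges that overlapped.

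Of the 7 other epithelial miRNAs, 6 were detected in at least 1 rat, 1 in all 12 and 1, rno-miR-215, in none. The one found in all rats, rno-miR-192 of the gut, liver and kidney, ran from 13.6 in H3 to 83.7 in C73. Its cluster partner in the genome, rno-miR-194, was detected in 8 rats and reached 21.3 in H1. Neither was highest in A89, C25 or H3, the rats that held the detections of the members other than rno-miR-203.

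By rat, 3 members were detected in A89 (rno-miR-203, rno-miR-205 and rno-miR-9), 3 in H3 (rno-miR-200a, rno-miR-200b and rno-miR-203) and 2 in C25. No member was detected in H10 or H20, and rno-miR-203 was the single member detected in the other 7 rats. A89, C25 and H3 were the 3 arrays with the most detected miRNAs of any kind, 208 to 220, and H10, with none of the members, had the fewest, 177. H20, also without a member, was not at the low end, and 4 arrays detected fewer miRNAs than it. The number of arrays, 6 a group, limits the precision of each of these comparisons, and whether the detections follow the sensitivity of the array was not tested.

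**Figure D5:**
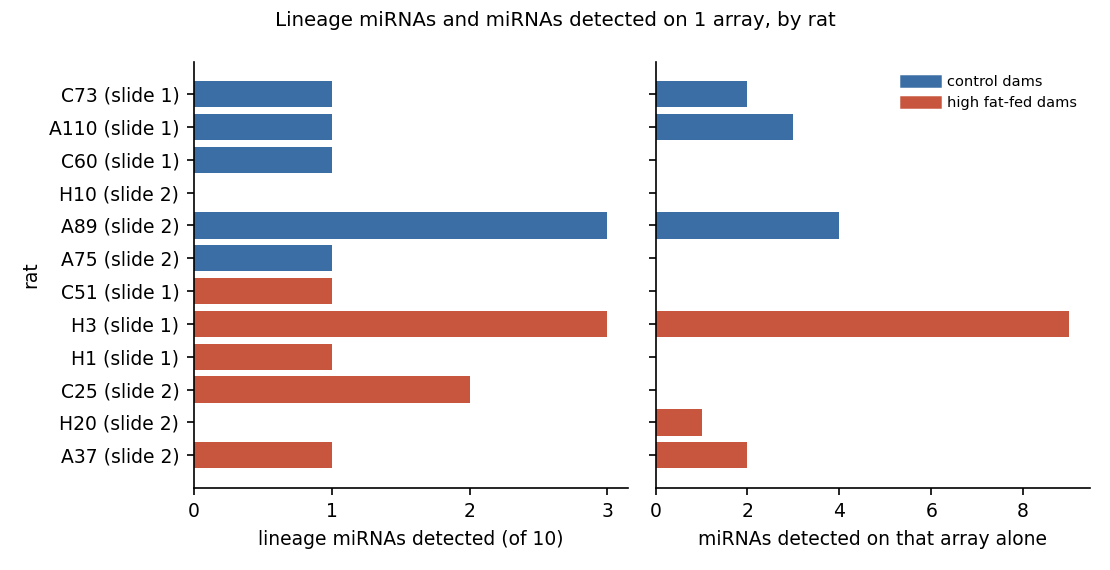
For each rat (vertical axis, with its slide), the left bars give the number of the 10 members detected and the right bars the number of miRNAs detected on that array alone, coloured by group. A89 and H3 each hold 3 members, and H3 has 9 miRNAs detected on no other array.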

How the data were processed

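Groups and rat codes were taken from the labels. For every array the authors deposited a signal intensity, a signal error and a detection flag for each miRNA, as the scanner software wrote them, without normalization between arrays. Their deposited value table was identical (0 values differed by over 0.001). The extraction software's version is not given in the sources used here. The 22 control entries were left out.

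Each array was divided by its 75th percentile over the 162 miRNAs detected on all 12 arrays (864 to 1911), brought to signal units by 1 factor, floored at 5.17 (the median over arrays of the lowest detected signal) and put on the log2 scale. HF minus control was fitted in limma 3.58.1 (R 4.3.3), tested on simulated data, and p-values were adjusted (Benjamini-Hochberg) over the 193 miRNAs that 6 or more arrays detected. Members detected on fewer were fitted beside these, without an adjusted p. Exact permutation tests and correlations (100000 permutations) were run in Python 3.11.15. Ranks and the adjustment over the marker lists came from SciPy 1.17.1.

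All 10 members were named. Of the lineage lists, the first 8 detected miRNAs in name order were named (rno-miR-128, rno-miR-138, rno-miR-182, rno-miR-183, rno-miR-192, rno-miR-194, rno-miR-212 and rno-miR-218), and the other list miRNAs in the text were added after values were seen. Up to 5 miRNAs with a member's pattern of detection were named. Array names without an arm were taken for the arm RefSeq lists under that name or as the main product. Members and lists were chosen with earlier results of these data known. The labels give separate rats but no litters, so p-values measure the spread between these rats and treat them as independent. The diet was given to the dams, so p-values could be too small if rats of a group shared a litter. Alternatives were other scalings and floors, other filters, slide as a block, the methods' t-test, other detection rules and each rat left out. The detection rule of 4 times the error, and the correlations with their splits and left-out rats, were added after values were seen.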

Additional observations from a re-analysis of the deposited data

Results flagged for a closer look

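For the members and list miRNAs detected in at least 1 rat, each group with any spread was examined on the log2 scale for 1 rat far from the 5 others (Dixon's criterion). This held in 19 of 65 combinations of a miRNA and a group. Chance alone meets the criterion in about 1 of 20 independent groups. The combinations here are not independent, since the miRNAs were read in the same rats. In 11 of the 19 the 5 other rats were all at the floor of 5.17, which sets the detected rat apart by construction. The values given are scaled signals.

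Those 11 were rno-miR-200a at 12.2 and rno-miR-200b at 8.82 in H3, rno-miR-205 at 15.3, rno-miR-9 at 7.77 and rno-miR-138 at 7.34 in A89, and rno-miR-205 at 7.66 in C25. They also took in rno-miR-183 at 38.7 and rno-miR-182 at 13.4 in H1, rno-miR-183 at 16.5 and rno-miR-182 at 10.4 in A75, and rno-miR-31 at 13.1 in C73.

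In the other 8 the remaining rats of the group were not all at the floor. Among controls, rno-miR-338 in A89 was at 1189, with the others at 223 to 408, and rno-miR-96 in C73 was at 12.05, with the others at 83.2 to 241. The remaining 6 were all in the HF rat H3. There rno-miR-218 was at 113, with the other HF rats at 28.9 to 41.4, rno-miR-499 at 366, with the others at 5051 to 7994, and rno-miR-206 at 9354, with the others at 30841 to 60699. The vessel miRNAs rno-miR-126 at 2004 (others 3951 to 5239), rno-miR-143 at 2813 (others 4770 to 6369) and rno-miR-145 at 46.5 (others 83.5 to 117) were low in the same rat.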

How the results depend on the processing

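The log2 difference of rno-miR-203 kept its direction over 22 alternatives, from -0.76 to -0.11. Its p ran from 0.093 to 0.647 in limma or the methods' t-test. With each rat left out the difference ran from -0.76 to -0.24. The authors' value table, slide as a block, the other filters and the methods' t-test could not move the estimate of -0.50. The floor 4 times lower could not either, as equal numbers of rats were undetected in the groups. The log2 difference of rno-miR-205 was 0.085 without A89, where C25 as the only detected rat fixes the sign, and -0.25 to 0.085 with each rat left out. Those of rno-miR-200a (0.19 to 0.54), rno-miR-200b (0.11 to 0.46) and rno-miR-9 (-0.43 to -0.017) have a direction fixed by the group of their single detected rat, so its persistence says nothing about stability. The number of miRNAs with an adjusted p under 0.05 was 0 under all 22 alternatives. With a signal of at least 4 times its error, 8 of the 120 combinations were detected (6.67%, against 27.3% over all miRNAs) and 7 members in no rat. With each rat left out, detections numbered 12 to 15, and members found in no rat 5 to 7 (7 without H3, 6 without A89). Spearman's rho of rno-miR-203 with the fibroblast list was 0.771 in control and 0.600 in HF offspring, 0.464 on slide 2, 0.69 without scaling and 0.715 to 0.846 with each rat left out. The cause was not tested. No paired analysis was possible because the labels give no replicate numbers that the groups share. Signals near the detection limit bound what can be said of members with a weak or no signal.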

Other observations

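The epithelial list also held rno-miR-183, rno-miR-96 and rno-miR-182, which are made from a single cluster known from sensory organs. Detection of rno-miR-183 was limited to the HF rat H1, at 38.7, and the control rat A75, at 16.5. The same 2 rats, and no other, had rno-miR-182, at 13.4 in H1 and 10.4 in A75. The third miRNA of the cluster, rno-miR-96, was detected in 10 rats and was highest in H1 at 257 and A75 at 241, followed by 153.3 in H10. All 3 were thus highest in H1 and A75, 1 rat of each group, and rno-miR-96 was not detected in H3 or H20. Neither H1 nor A75 held a member other than rno-miR-203. A further epithelial miRNA, rno-miR-31, was detected in C73 alone, at 13.1.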
